A study of Mus musculus with 13 samples.

Results

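The transcription factors that give a microglial cell its identity were examined in brain myeloid cells of PS2APP mice with and without Trem2. The 9 genes Spi1, Irf8, Sall1, Sall3, Mef2a, Mef2c, Runx1, Maf and Cebpa were taken by name, under a rule that uses no measured value, out of 52636 genes listed for every mouse, but the list was drawn up with earlier results of these data known. All 9 were among the 17086 genes that passed the filter on low counts. RNA-Seq had been run on live CD11b+CD45+Ly6g-Ccr2- cells sorted from cortex and hippocampus of mice aged 14 to 15 months, with 7 PS2APP;Trem2wt mice (5 females and 2 males, labelled PS2APP) and 6 PS2APP;Trem2ko mice (5 females and 1 male, labelled PS2APP;Trem2KO). Both groups carry the PS2APP transgenes, which encode human presenilin 2 and human amyloid precursor protein with familial Alzheimer's disease mutations and lead to amyloid plaques. By label the groups differ in the Trem2-null allele (Trem2tm1(KOMP)Vlcg), and no plaque-free brain stands beside them. By the study's account that allele came from a different mouse substrain than the PS2APP line, into which it was crossed. The study also found less plaque, of a more diffuse form, in other cohorts of older PS2APP;Trem2ko mice. Trem2 was lost from every cell of the animal and not from microglia alone. Per the study's methods, mice were as a rule handled in pairs of 1 mouse per genotype on the way from perfusion to sorting, but which mice formed a pair is not given in the sources used here, so every comparison treats the groups as unpaired. The sort takes in a small share of perivascular macrophages along with microglia, and in such bulk RNA fewer cells of a type and less RNA per cell cannot be told apart.

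Microglia arise from yolk sac progenitors, and their identity is built in layers. PU.1 (the product of Spi1), C/EBPα, Runx1 and Irf8 are shared with other myeloid cells and set up the lineage, with PU.1 opening enhancers at which Irf8 and other partners bind. Mef2a, Mef2c, Maf and Sall1 act on top of that layer in the adult brain, and Sall1 in particular separates microglia from other macrophages, since its loss moves microglia toward an inflammatory state.

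Depth was between 26120961 and 120569609 counts per mouse, and each of the 9 genes had between 1898 and 104751 counts in a mouse, so that counting error was small beside the spread between mice. Trem2 itself had an nRPKM (RPKM, the reads per length of transcript and depth, adjusted by the size factor of the library) between 818 and 1244 in PS2APP;Trem2wt mice and between 0.393 and 2.29 in PS2APP;Trem2ko mice. The labelled cell type showed in its defining markers: Selplg and P2ry12, both typical of microglia, had means of 2474 and 1948 nRPKM in PS2APP;Trem2wt cells. Markers of other cells were lower than these. Summed levels over a list were at most 54.7 nRPKM for 8 border macrophage genes, 25.2 for 6 monocyte genes and 168 for 7 neutrophil genes in any mouse. As numbers, such sums were not low beside the factors. A sum of marker genes does not measure how much of a factor's RNA came from those cells. The mouse with 168 had 86.8 nRPKM of Spi1 and 18.7 of Cebpa, and the mouse with 54.7 had 17.9 of Maf. For each pair of mice of the same genotype (36 pairs), the chi-square of the count differences over its degrees of freedom was at least 18.7. No library thus appeared to have been entered again within a genotype. Pairs across the genotypes were not part of this check.

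None of the 9 transcription factors passed an adjusted p of 0.05 in edgeR's quasi-likelihood test between the genotypes. Among all genes tested 2.04% did, 1.53% as lower and 0.503% as higher in PS2APP;Trem2ko cells. At an unadjusted p under 0.05 there were 2 of the 9, Spi1 and Maf, where 14.8% of all genes tested had such a p. The log2 fold changes (PS2APP;Trem2ko minus PS2APP;Trem2wt) were negative for 6 of the factors and positive for 3, from -0.24 for Spi1 to 0.29 for Maf. Their median was -0.09, beside 0.00389 for all genes tested. The median standard error was 0.0923 on the log2 scale, against 0.155 over all genes, and all 9 of the 95% intervals lay inside the 2-fold bounds, with -0.43 as the lowest and 0.55 as the highest limit. None of the 9 was without overlap between the genotypes, as 1.64% of all genes tested were in TMM-scaled CPM.

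**Figure D1:**
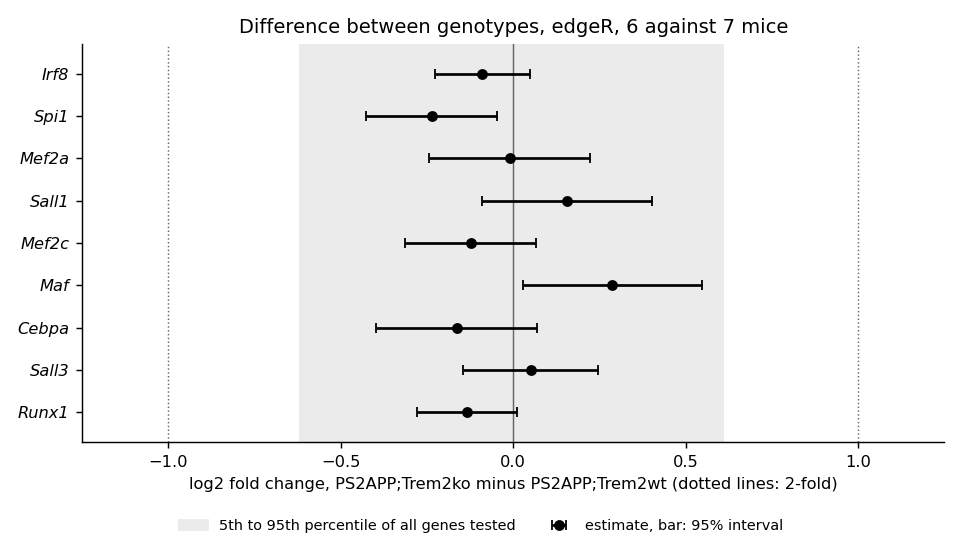
Log2 fold change of each transcription factor between PS2APP;Trem2ko (6 mice) and PS2APP;Trem2wt (7 mice) on the x axis, with its 95% interval from edgeR, 1 row for each gene in order of level. The grey band runs from the 5th to the 95th percentile of all genes tested (-0.62 to 0.61), dotted lines mark 2-fold, and only the intervals of Spi1 and Maf leave out 0.

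The levels of the factors in nRPKM, compared per length of transcript, fell into a higher and a lower tier. The place of a gene depends on the length used. In TMM-scaled CPM, which is not divided by length, Spi1 ran from 213.6 to 343.5 over the mice. This overlapped Maf (150.3 to 320.8) and lay below every value of Sall1 (451.9 to 824.2). Over all 13 mice Irf8 had the highest mean, 182.6 ± 13.9 nRPKM (SD, n = 13), and it stood above Spi1 in every mouse. Spi1 (94.6 ± 12.97), Mef2a (85.9 ± 11.8), Sall1 (82.5 ± 13.1) and Mef2c (70.0 ± 7.96) followed, all as means with SD over the same mice. Within this tier the neighbours did not keep a fixed order, since Spi1 was above Mef2a in 8 of 13 mice, Mef2a above Sall1 in 9 and Sall1 above Mef2c in 11. A gap then separated Mef2c from Maf, with a median ratio within mice of 3.75. Its size varied, but Mef2c was above Maf in all 13 mice. In the lower tier Maf had 19.5 ± 3.74, Cebpa 18.8 ± 2.91, Sall3 16.8 ± 1.93 and Runx1 9.61 ± 0.817 nRPKM. Maf exceeded Cebpa in 10 mice and Cebpa exceeded Sall3 in 10, whereas Sall3 exceeded Runx1 in all 13.

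**Figure D2:**
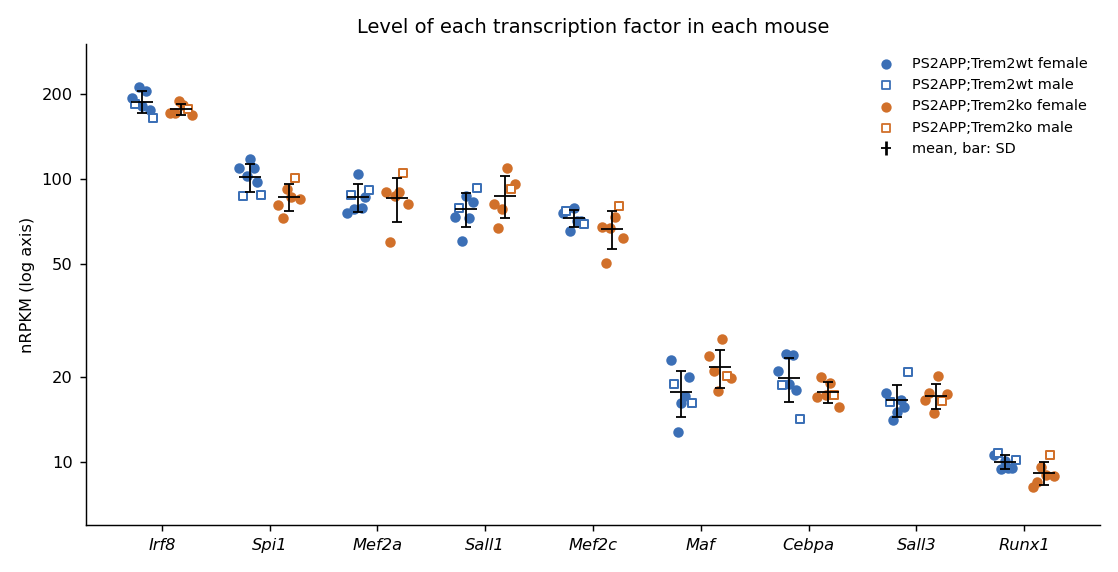
Level of each transcription factor in nRPKM (log axis) in each mouse, with 7 PS2APP;Trem2wt mice in blue and 6 PS2APP;Trem2ko mice in orange, females as filled circles and males as open squares. Black bars give the mean and SD by genotype, and in each of the 9 genes the ranges of the genotypes overlap. The step between Mef2c and Maf has a median ratio within mice of 3.75.

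The lineage factors were taken first. Spi1 (ENSMUSG00000002111, chromosome 2, 91082390 to 91115756 of GRCm38) encodes PU.1, on which all macrophages depend. It had a lowest, median and highest nRPKM of 86.8, 102.4 and 117.8 in PS2APP;Trem2wt mice and of 73.0, 85.7 and 100.6 in PS2APP;Trem2ko mice. All 6 PS2APP;Trem2ko mice were below the PS2APP;Trem2wt median, and 4 of them were below every PS2APP;Trem2wt mouse, while the highest PS2APP;Trem2ko mouse lay in the middle of the other group. The log2 fold change came to -0.24 (SE 0.089, 95% interval -0.43 to -0.05, adjusted p = 0.212 in edgeR), which is 0.849-fold with an interval of 0.745 to 0.968. The value kept its sign with each mouse left out in turn, between -0.28 and -0.19, and the unadjusted p was under 0.05 in all 13 of these fits, but the adjusted p was above 0.05 in each.

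Cebpa (ENSMUSG00000034957, chromosome 7, 35119293 to 35121928) encodes C/EBPα, which works with PU.1 in myeloid progenitors. Its nRPKM was 14.2, 18.8 and 24.1 (lowest, median, highest) in PS2APP;Trem2wt mice and 15.7, 17.2 and 19.997 in PS2APP;Trem2ko mice. The PS2APP;Trem2ko mice all fell inside the range of the PS2APP;Trem2wt mice, 1 of which, a male, was the lowest of all. The log2 fold change came to -0.16 (SE 0.109, adjusted p = 0.523 in edgeR).

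Runx1 (ENSMUSG00000022952, chromosome 16, 92601466 to 92826149) is needed for the emergence of blood and microglial progenitors. In nRPKM it was the lowest of the 9 and among the steadiest, with 9.43, 10.1 and 10.8 in PS2APP;Trem2wt mice and 8.20, 8.96 and 10.6 in PS2APP;Trem2ko mice. In TMM-scaled CPM, which is not divided by length, Cebpa was lower (53.9 to 90.6, against 112.3 to 149.0 for Runx1). The lowest values, below the whole PS2APP;Trem2wt range, came from 4 PS2APP;Trem2ko females, and the PS2APP;Trem2ko male was at the upper end of both groups. The log2 fold change came to -0.13 (SE 0.068, 95% interval -0.28 to 0.01, adjusted p = 0.379 in edgeR).

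Irf8 (ENSMUSG00000041515, chromosome 8, 120736358 to 120756694) is the interferon regulatory factor that pairs with PU.1 on DNA. Its nRPKM was 164.9, 183.5 and 211.0 in PS2APP;Trem2wt mice and 168.7, 174.2 and 188.7 in PS2APP;Trem2ko mice. The coefficient of variation in PS2APP;Trem2ko mice, 4.49%, was the smallest of any factor in either genotype, and all these mice lay within the range of the other group. The log2 fold change came to -0.09 (SE 0.065, 95% interval -0.23 to 0.05, adjusted p = 0.563 in edgeR), or 0.940-fold with an interval of 0.854 to 1.03.

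The factors of the adult microglial layer came next. Mef2a (ENSMUSG00000030557, chromosome 7, 67231163 to 67372858) and Mef2c (ENSMUSG00000005583, chromosome 13, 83504034 to 83667080) encode MADS box proteins, and Mef2c is known for restraining the microglial inflammatory response. Mef2a had 76.1, 86.1 and 104.1 nRPKM in PS2APP;Trem2wt mice and 59.9, 88.4 and 105.5 in PS2APP;Trem2ko mice, and its log2 fold change came to -0.01 (SE 0.110, adjusted p = 0.977 in edgeR). Mef2c had 65.5, 71.0 and 79.1 nRPKM against 50.7, 67.3 and 80.3, and its log2 fold change came to -0.12 (SE 0.090, adjusted p = 0.565 in edgeR). In both genes the PS2APP;Trem2ko group was the wider, holding both the lowest and the highest mouse of all, and these were the same 2 mice in both genes, a female at the bottom and the male at the top. The mean within-mouse ratio of Mef2a to Mef2c was 1.18 in PS2APP;Trem2wt and 1.28 in PS2APP;Trem2ko mice.

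Maf (ENSMUSG00000055435, chromosome 8, 115682942 to 115707794) encodes c-Maf, a leucine zipper factor of mature macrophages. Its nRPKM was 12.8, 17.1 and 23.0 in PS2APP;Trem2wt mice and 17.9, 20.6 and 27.2 in PS2APP;Trem2ko mice. All 6 PS2APP;Trem2ko mice were above the PS2APP;Trem2wt median, 2 of them were above every PS2APP;Trem2wt mouse, and 4 PS2APP;Trem2wt mice were below every PS2APP;Trem2ko mouse. The log2 fold change came to 0.29 (SE 0.122, 95% interval 0.03 to 0.55, adjusted p = 0.279 in edgeR), which is 1.22-fold with an interval of 1.02 to 1.46. With single mice left out in turn, the unadjusted p was under 0.05 in 7 of 13 fits. Of the 50-base words of Maf transcripts, 4.64% also occur, on either strand, in transcripts of another gene. Most often this was the antisense gene Gm15655, whose listed count was 0 in all mice. For Mef2a this share was 3.65%, mainly with Lysmd4 on the opposite strand. Lysmd4 had 11141 counts over all mice, beside 559675 for Mef2a. Border macrophages also express Maf, and the summed level of 8 markers of these cells was 11.6, 31.9 and 35.8 nRPKM in PS2APP;Trem2wt mice and 20.1, 28.7 and 54.7 in PS2APP;Trem2ko mice. The log2 fold changes of the 8 had a median of 0.31 and none was called, and their part in the Maf value was not tested.

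Sall1 (ENSMUSG00000031665, chromosome 8, 89027235 to 89044162) encodes the zinc finger repressor that among brain myeloid cells is peculiar to microglia. It had 60.2, 78.8 and 92.7 nRPKM in PS2APP;Trem2wt mice and 67.1, 86.9 and 109.2 in PS2APP;Trem2ko mice. Of the PS2APP;Trem2ko mice 4 were above the PS2APP;Trem2wt median, and the log2 fold change came to 0.16 (SE 0.115, 95% interval -0.09 to 0.40, adjusted p = 0.576 in edgeR). Sall3 (ENSMUSG00000024565, on chromosome 18), its relative, had 14.1, 16.3 and 20.8 nRPKM against 14.9, 17.0 and 20.1. The groups covered nearly the same range, and its log2 fold change came to 0.05 (SE 0.092, 95% interval -0.15 to 0.25, adjusted p = 0.858 in edgeR). Sall1 exceeded Sall3 by a mean ratio within mice of 4.73 in PS2APP;Trem2wt and 5.05 in PS2APP;Trem2ko cells.

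The fit was then repeated in the females, since sex is the one other label that varies. With 5 mice of each genotype Spi1 was called, with -0.36 on the log2 scale (SE 0.080, adjusted p = 0.0483 in edgeR), where 1.49% of all genes tested in females were called. Its nRPKM was 97.5, 109.5 and 117.8 in PS2APP;Trem2wt females and 73.0, 85.0 and 92.2 in PS2APP;Trem2ko females. These ranges did not overlap, as was so in the lower direction for 2.43% of all genes in TMM-scaled CPM. The PS2APP;Trem2wt males had 86.8 and 87.6 nRPKM and the PS2APP;Trem2ko male 100.6, which is the other order. The difference in log2 fold change between the sexes (male minus female) was 0.57 (SE 0.167, adjusted p = 0.353 in edgeR), so it did not pass the correction, and only 1 male of that genotype enters it. The other 8 factors had adjusted p-values of 0.284 or more in females in edgeR, and Cebpa, with -0.25 (SE 0.104), was the next largest negative value.

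**Figure D3:**
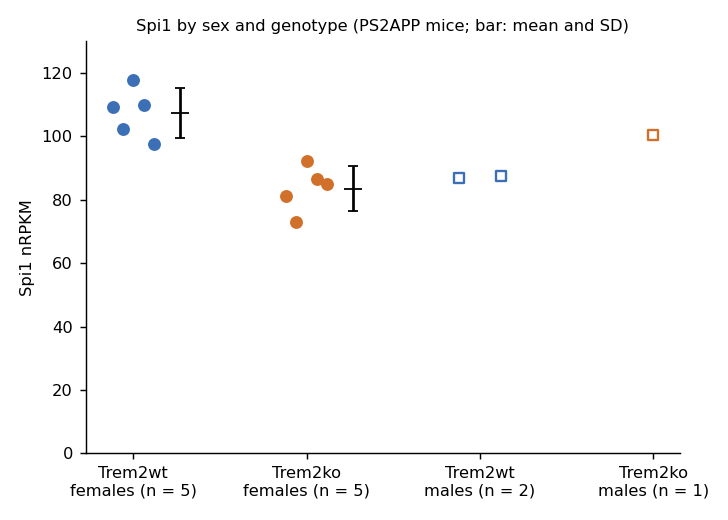
Spi1 level in nRPKM (y axis from 0) in each mouse, split by sex and genotype, with the mean and SD beside the female groups. The 5 PS2APP;Trem2ko females, 73.0 to 92.2, lie below the 5 PS2APP;Trem2wt females, 97.5 to 117.8, while the PS2APP;Trem2ko male (100.6) lies above the PS2APP;Trem2wt males (86.8 and 87.6).

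Mice of the same genotype differed in these factors, and some of the factors varied together. Likeness was measured as Pearson's r of log2(nRPKM + 0.1) over 13 mice after the mean of each genotype was subtracted, as a description, since all points share their library, sort and depth. Over the 36 pairs of factors r had a median of 0.0567, from -0.641 to 0.860, and it was over 0.5 in 8 pairs. Of all pairs among the 6433 tested genes with a mean of at least 5 nRPKM, 9.7% had such an r. The correlation of a factor with the total count of the library was between -0.299 (Maf) and 0.221 (Sall3). Differences between the sexes were not removed.

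Mef2a and Mef2c were the pair most alike, with r = 0.860 and a Spearman's rho of 0.648. Without the 2 mice farthest from the median of Mef2a it was 0.542, so a good part of the value rests on those mice. Cebpa and Irf8 followed with r = 0.849 (rho = 0.835), and 0.668 without the 2 mice farthest in Cebpa. Sall1 varied with Mef2a (r = 0.679) and Mef2c (0.610), Runx1 and Spi1 with Mef2c (0.643 and 0.588), and Sall3 with Sall1 (0.551) and Maf (0.514). Without the 2 mice farthest in Mef2a and in Mef2c, the values of Sall1 were 0.573 and 0.459. Without those farthest in Runx1, Spi1, Sall1 and Maf, the rest were 0.628, 0.586, 0.593 and 0.336. In the 10 females alone, r was 0.4427 for Runx1 with Mef2c and 0.7485 for Spi1 with Mef2c. For Sall3 it was then 0.4663 with Sall1 and 0.8198 with Maf. Against these positive pairs stood Cebpa and Sall1 at -0.641 (rho = -0.709) and Irf8 and Sall1 at -0.507 (rho = -0.577). They became -0.426 and -0.258 without the 2 mice farthest in Cebpa and in Irf8. Cebpa with Sall1 and Irf8 with Sall1 were the only 2 of the 36 pairs with an r under -0.5. Among all pairs of the 6433 genes 6.7% had such an r, so negative pairs were no more frequent here than among genes at large. Spi1 and Irf8, the partners on DNA, had r = 0.487.

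**Figure D4:**
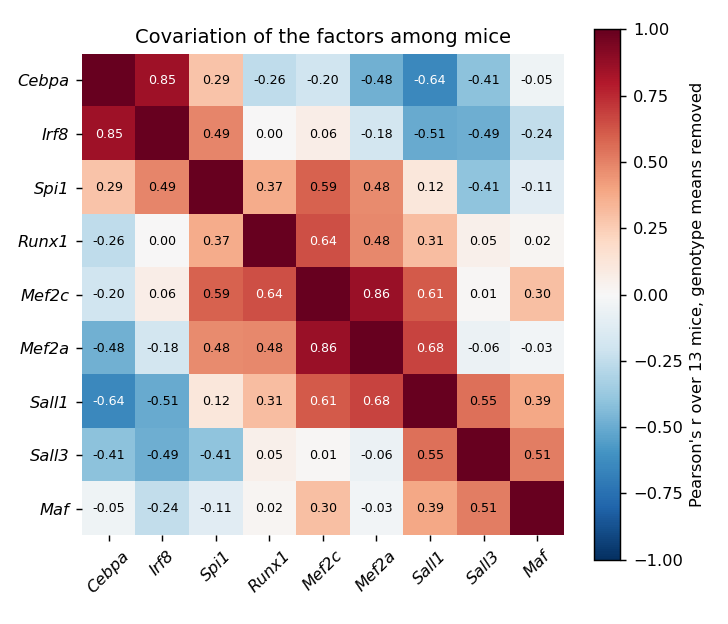
Pearson's r between the 9 transcription factors over 13 mice, from log2(nRPKM + 0.1) with the genotype means removed, red for positive and blue for negative values. Mef2a with Mef2c (0.860) and Cebpa with Irf8 (0.849) are the highest pairs and Cebpa with Sall1 (-0.641) is the lowest.

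Among all 6433 genes the one most like each factor was found in the same way. It was Arhgap18 for Spi1 (r = 0.871), Vti1a for Runx1 (0.903), 2510009E07Rik for Mef2a (0.943), Bcl2l11 for Mef2c (0.933) and Kctd12 for Maf (0.893). For Sall1 it was Tjp1 (0.946) and for Sall3 it was Gm43481 (0.953). Cebpa and Irf8, which were alike themselves (r = 0.849), shared the same gene, Atp6v1c1, which encodes a subunit of the proton pump of lysosomes (0.862 and 0.869). Without the 2 mice farthest in the factor these values were 0.676 and 0.754. Those of the other factors were then between 0.787 (Spi1) and 0.911 (Sall3). Each gene named is the one with the highest r among all these genes over 13 mice and is given only as a description.

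Because Mef2a and Mef2c were the most alike, the sequences around their start sites are shown. Each runs from 150 bases before to 30 bases after a start that RefSeq gives on GRCm38.p6. Mef2c has 3 such windows, and the one with the lowest coordinate is shown. The letters are written 5′ to 3′ on the strand of the gene, and capitals mark those that match a searched motif. The Mef2a stretch is chr7:67372829-67373008 on the minus strand and the Mef2c stretch is chr13:83503884-83504063 on the plus strand.
Mef2a: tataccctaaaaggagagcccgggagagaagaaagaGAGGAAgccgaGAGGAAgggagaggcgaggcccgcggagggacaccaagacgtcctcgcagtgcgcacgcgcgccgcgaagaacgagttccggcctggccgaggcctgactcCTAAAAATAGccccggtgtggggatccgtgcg
Mef2c: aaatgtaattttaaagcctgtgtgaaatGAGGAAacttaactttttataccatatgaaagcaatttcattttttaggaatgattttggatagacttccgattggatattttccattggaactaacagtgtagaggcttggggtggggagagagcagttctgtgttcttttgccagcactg
Both hold the core of the PU.1 motif, GAGGAA, which begins at positions -114 and -103 of Mef2a and -122 of Mef2c, with 1 as the first transcribed base. In Mef2a the start site itself lies in a MEF2 site, CTAAAAATAG, the motif that the MEF2 proteins bind.

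RefSeq windows of 300 bases (250 before to 50 after a start) were at hand for 6 of the 9 factors, 12 windows in all, and both strands were searched. The PU.1 core GAGGAA was in 4 of the 12, in Mef2a, in Mef2c (at 2 of its starts) and in Runx1 (at its second start), and in 28.3% of all 32851 windows. The MEF2 motif, CTA and TAG with NNNN between them, was in the Mef2a window alone and in 3.69% of all windows. The RUNX motif TGTGGT was in a window of Runx1 and in 16.8% of all. The composite of PU.1 and IRF, GGAA and GAAA with NN between them, whose GGAA can overlap the PU.1 core, was in none of the 12 and in 2.72% of all, and the C/EBP palindrome TTGCGCAA was in none and in 0.183% of all. These are matches of letters in short windows and say nothing about binding.

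The relatives, cofactors and targets of the 9 factors were read from the same fit. Of 25 other genes in their families 20 were tested, and none was called in either direction. Their median log2 fold change was 0.12, with 12 positive and 8 negative. Irf5, which drives inflammatory genes, had a log2 fold change of -0.05 (SE 0.058) and a mean ratio to Irf8 within mice of 0.681 in PS2APP;Trem2wt and 0.698 in PS2APP;Trem2ko cells. Cebpb, the C/EBP factor of activated macrophages, had 0.15 (SE 0.124), and its mean ratio to Cebpa was 1.84 in PS2APP;Trem2wt and 2.28 in PS2APP;Trem2ko cells, and neither ratio was tested. Maff, a small Maf protein named after its values were seen, was low, at 0.644 ± 0.240 (SD, n = 7) against 0.291 ± 0.110 (SD, n = 6) nRPKM. Its log2 fold change came to -1.15 (SE 0.311, adjusted p = 0.0753 in edgeR), and it was called by voom+limma (adjusted p = 0.0499) and by DESeq2 (adjusted p = 0.0115), and in edgeR without PS2APP;Trem2wt replicate 6 (adjusted p = 0.0377).

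Cofactors came to 19 tested of 21, among them the subunits of the NuRD repressor complex that Sall1 recruits and the deacetylases that bind MEF2 proteins. None was called, and their median log2 fold change was -0.05. The 3 most abundant were Jun, an AP-1 subunit that binds with PU.1, at 0.34 (SE 0.417), and the NuRD subunits Mta2 at 0.00 (SE 0.067) and Mbd3 at -0.04 (SE 0.063). Cbfb, the partner subunit of Runx1, was named after its values were seen. It had a mean nRPKM of 21.3 ± 1.32 (SD, n = 7) with Trem2 and of 18.9 ± 0.956 (SD, n = 6) without it, which is -0.17 on the log2 scale (SE 0.059, edgeR adjusted p = 0.161), and DESeq2 alone called it (adjusted p = 0.0466).

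Known targets of PU.1 and Irf8 were 12, all tested, and none was called. Of them 8 had negative and 4 positive log2 fold changes, with a median of -0.12. Csf1r, the receptor on which microglia depend for survival, had a mean nRPKM of 2001 ± 308 (SD, n = 7) with Trem2 and of 1773 ± 154 (SD, n = 6) without it, and its log2 fold change came to -0.18 (SE 0.1002, adjusted p = 0.437 in edgeR). The integrin chain Itgb2 had -0.06 (SE 0.095) and Ncf1, a subunit of the phagocyte oxidase, had 0.15 (SE 0.079). Of 12 homeostatic microglial genes 7 had negative and 5 positive log2 fold changes. In PS2APP;Trem2ko cells 1 of them was called as lower and none as higher, beside 1.53% and 0.503% of all genes tested. Cx3cr1, the fractalkine receptor, was at 1526 ± 144 nRPKM (SD, n = 7) in PS2APP;Trem2wt cells and at 1088 ± 127 nRPKM (SD, n = 6) in PS2APP;Trem2ko cells, a difference of -0.49 on the log2 scale (SE 0.086, edgeR adjusted p = 0.0067). The other 11 did not pass the test, and P2ry12 and Selplg had log2 fold changes of 0.00 (SE 0.1005) and -0.02 (SE 0.069).

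**Figure D5:**
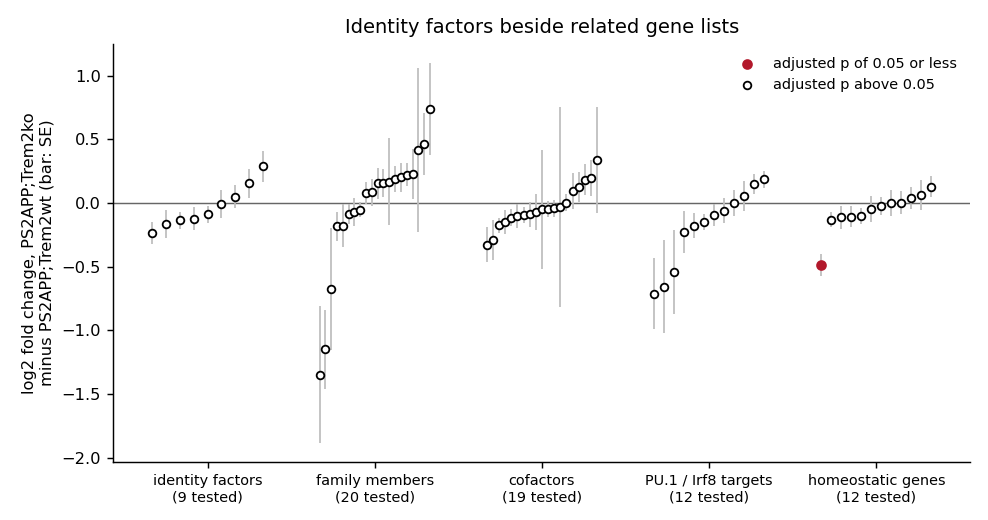
Log2 fold change (y axis, PS2APP;Trem2ko minus PS2APP;Trem2wt, bars for the SE) of each tested gene of the identity factors (9), their family members (20), cofactors (19), PU.1 and Irf8 targets (12) and homeostatic genes (12), sorted within each list. The only filled point, with an adjusted p of 0.05 or less, is Cx3cr1 at -0.49.

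Markers of other cells were read beside these lists. Neutrophils also depend on Spi1 and Cebpa, and the summed level of 7 neutrophil genes was 8.85, 32.7 and 168 nRPKM (lowest, median, highest) in PS2APP;Trem2wt mice and 0.143, 21.4 and 25.4 in PS2APP;Trem2ko mice. Of these genes 4 were tested, all with negative log2 fold changes and a median of -1.60, and none was called. The defining markers Ly6g, by which neutrophils were gated out, Retnlg and Cxcr2 were too low to be tested. The mouse with the sum of 168 was a PS2APP;Trem2wt male with 86.8 nRPKM of Spi1, the lowest value of its genotype. The other male of that genotype had 87.6 nRPKM of Spi1. The part of neutrophil RNA in the Spi1 and Cebpa values was not tested. The lists of monocyte (6 of 6 tested), lymphocyte (3 of 8), neuron (6 of 6), astrocyte (5 of 5), oligodendrocyte (5 of 5) and endothelial (4 of 4) genes held no called gene either. Their median log2 fold changes were -0.30, 0.59, 0.29, -0.06, 0.09 and -0.13 in that order, and their part in the values of the factors was not tested.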

How the data were processed

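The 9 genes and all gene lists were chosen with earlier results of these data known. Per the labels and the study's methods, single-end reads were aligned to GRCm38 with GSNAP after removal of adapters and rRNA, and the authors deposited for each mouse counts of reads per gene without normalization and nRPKM, an RPKM adjusted by size factor. Whether counting used the strand is not given in the sources used here. Each mouse is 1 replicate, grouped by the genotype label, and replicate numbers were assigned here in the order of the sample records, as names that pair no mice. The deposited counts were tested with edgeR 4.0.16 (R 4.3.3): filterByExpr kept 17086 genes, TMM scaling, glmQLFit and glmQLFTest without covariate, Benjamini-Hochberg over all genes tested. Calls are adjusted p-values of 0.05 or less. The SE is the log2 fold change over the square root of F. The deposited RPKM values give levels and likeness. Total counts were 26120961 to 120569609, and the common biological coefficient of variation was 0.299.

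Genes named are the 9 factors, each list's called genes and up to 3 others of highest level, and each factor's most alike member and gene. Maff, Cbfb and markers of other cells were named after their values were seen. Not reported here are 2 genes that this rule names. The alternatives tried were voom+limma (limma 3.58.1), which the study used, DESeq2 1.42.0, RLE scaling, 2 other filters, sex as covariate, a fit of the females alone, limma on nRPKM after log2 with a pseudocount of 0.1 or 1, exact permutation tests over 1716 splits, and each mouse left out. The interaction of sex and genotype was added after the data were seen. The tests were first tested on simulated data. Positions are from GENCODE M21. Python 3.11.15, numpy 2.4.6, pandas 2.3.3 and scipy 1.17.1 were used.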

Additional observations from a re-analysis of the deposited data

Results flagged for a closer look

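Spi1 differed between the sexes in the direction of its genotype difference. Its log2 fold change was higher in males than in females by 0.571 (SE 0.167, unadjusted p = 0.00437 in edgeR over all 13 mice), but with an adjusted p of 0.353 it failed the correction, and 3 of 17086 genes passed it. The pattern was noticed in the data and then tested on them, and it rests on 1 PS2APP;Trem2ko male against 2 PS2APP;Trem2wt males. All 5 PS2APP;Trem2ko females were below all 5 PS2APP;Trem2wt females while the male comparison ran the other way without overlap, an arrangement that 118 genes (0.691% of those tested) showed, counting both directions. None of the other 8 factors had an unadjusted p under 0.05 for this difference, where 7.73% of all genes did.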

How the results depend on the processing

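Every fit of all 13 mice left the 9 factors uncalled, as did each of the 13 fits with a mouse left out. In females only, 1 of the 9 was called, Spi1, at a log2 fold change of -0.364. An exact two-sided permutation test of 1 gene at a time, with no adjustment, gave p = 0.0291 for Spi1 (difference of mean log2 levels -0.2329) and p = 0.0455 for Runx1 (-0.1349), and p = 0.0513 for Maf. Its smallest possible p is 0.00117. The sign of Mef2a, whose value is near 0, turned with sex as a covariate (0.007068) and with single mice left out, when it ran from -0.07645 to 0.07599 (0.04085 and 0.00274 without PS2APP;Trem2wt replicates 4 and 7, and 0.07599 and 0.007033 without PS2APP;Trem2ko replicates 2 and 6). Sall3 turned once, to -0.002039 without PS2APP;Trem2ko replicate 4, in a range up to 0.111. The other 7 kept their sign under every alternative run. DESeq2 called 851 genes in all where edgeR called 348, and other alternatives called 244 to 436. The median r between factors was 0.0567 over all mice and 0.1745 in females. No paired analysis was possible because the labels carry no replicate numbers and do not say which mice were handled together, so the part of shared handling in these values was not tested. Intervals within 2-fold do not show that the genotypes are alike.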
